A study of Mus musculus with 7 samples.

Results

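Mouse tumors carrying an Egfr exon 19 deletion were compared by RNA sequencing after 3 days of gefitinib and after 3 days of vehicle. These are 2 of the 7 libraries in the series, 1 per group. They were taken by their titles, and genes were kept where the mean over the 7 libraries was at least 1 TPM (an abundance scaled for transcript length and library total), which left 13998 of 21892 listed genes. The gefitinib group is tumor tissue from C57BL/6 mice given gefitinib for 3 days. The vehicle group is named as vehicle by its title, while its treatment field records no treatment. Both groups share the Egfr deletion, the C57BL/6 strain and growth under the skin after passage in C57BL/6J mice, so the tissue labelled as lung tumor grew outside the lung in a host with its own immune system. The sources used here give no dose, age or sex, and do not say how many animals stand behind a library or whether they were pooled.

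EGFR is a receptor tyrosine kinase that signals through RAS and ERK to transcription factors and through PI3K and AKT to growth and metabolism. Exon 19 deletions leave the kinase active without ligand, and gefitinib competes with ATP in its active site. ERK activity induces its own inhibitors, among them dual-specificity phosphatases and Sprouty proteins, so the transcripts of these inhibitors are commonly read as a gauge of ERK output. In the lung, EGFR-mutant adenocarcinoma resembles the alveolar type 2 cell, which makes surfactant and can give rise to the flat type 1 cell.

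Differences are given as log2 of (TPM + 1) with gefitinib over (TPM + 1) with vehicle. Counts of higher and lower genes start at 2-fold on that scale. There was no replicate in either group, so no test was possible and every difference is one between 2 libraries; TPM keeps no sequencing depth, so counting error is unknown too. With gefitinib, 2914 of 13998 genes were at least 2-fold higher (20.8%) and 2018 at least 2-fold lower (14.4%), together 35.2%, and the median over all genes was -0.09. At 4-fold the counts were 1291 higher and 437 lower, and at 16-fold 23 higher and 25 lower. The genes counted as higher held 34.5% of all TPM with gefitinib and 7.67% with vehicle. Those counted as lower held 7.91% with gefitinib and 25.3% with vehicle.

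**Figure D1:**
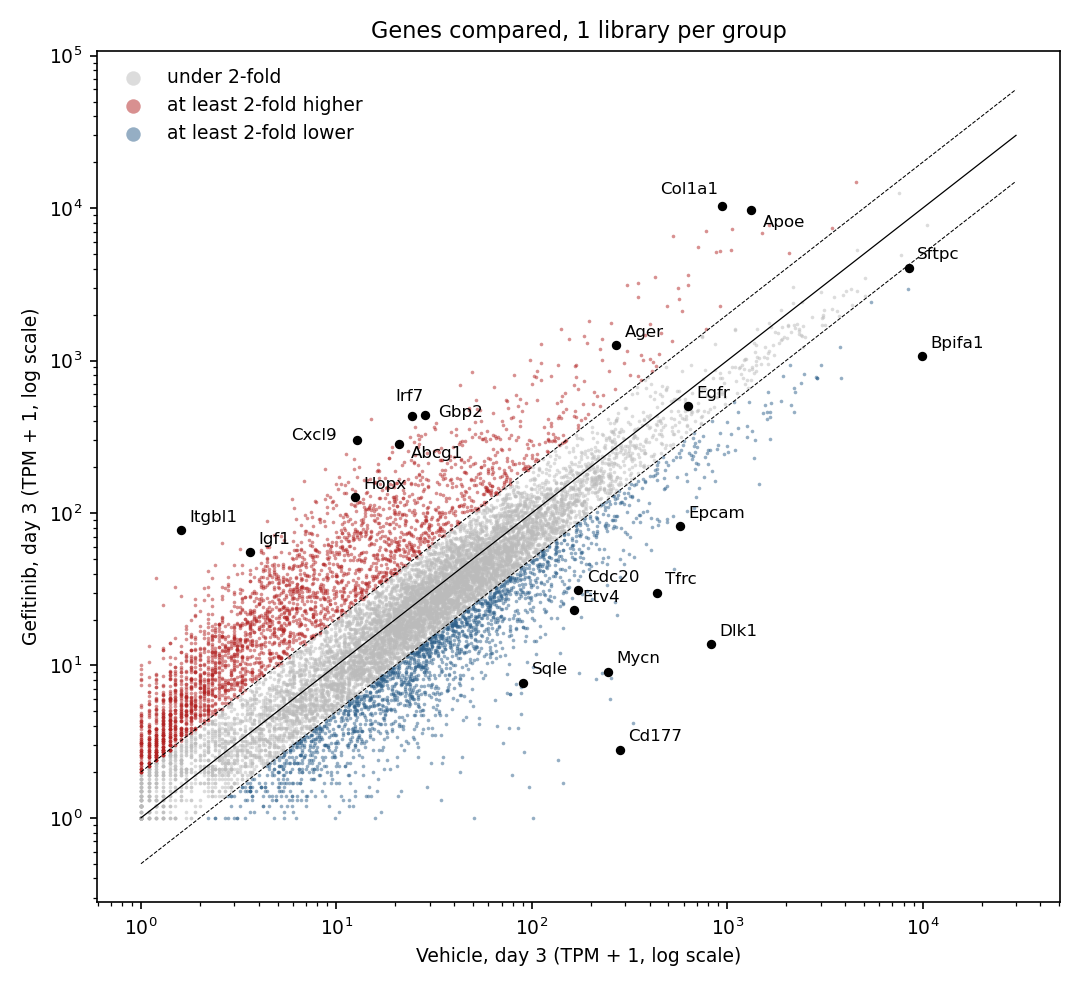
Each point is 1 of the 13998 genes compared, with vehicle at day 3 on the horizontal and gefitinib at day 3 on the vertical axis, both as TPM + 1 on log scales; dashed lines mark 2-fold, and named genes are in black. Mycn, Dlk1 and Cd177 lie far below the diagonal, while Egfr lies within 2-fold of it.

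The labelled tissue was checked against its markers. All 8 tumor epithelium markers were detected in both libraries, with the surfactant genes Sftpb and Sftpc among the most abundant transcripts, and 6 of the 8 were at least 2-fold lower with gefitinib (median -1.41). Beside them, 7 of 7 fibroblast markers (median 2.92), 9 of 10 macrophage and monocyte markers (2.89), 9 of 9 T cell markers (3.08) and 7 of 8 endothelial markers (1.90) were higher. Their summed levels were 1.68%, 0.257%, 0.0268% and 0.0422% of TPM with gefitinib, against 0.178%, 0.0381%, 0.00231% and 0.0128% with vehicle, and no compared marker in these 4 lists was listed at 0. The 12 skeletal muscle markers were all higher as well (median 2.89) and held 0.216% of TPM with gefitinib against 0.0289% with vehicle, as were 8 of 10 adipocyte markers (1.42). B cell and plasma cell markers had a median of 0.39, with Ms4a1 at 0.2 TPM in both libraries. In bulk tissue, fewer cells of a type and less RNA per cell cannot be told apart, and how far these shifts in cell types enter the gene differences below was not tested.

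Of the ErbB receptor genes only Erbb3 was at least 2-fold lower. Egfr itself lies on chromosome 11, 16752203 to 16913907 (GRCm38.p6, as all positions given here). It was at 499 TPM with gefitinib against 629.8 TPM with vehicle, a log2 difference of -0.33. Erbb3, the kinase-impaired partner that couples the family to PI3K, was at 41.5 TPM with gefitinib against 147 TPM with vehicle (-1.80), and Erbb2 at 43.4 TPM with gefitinib against 84.2 TPM with vehicle (-0.94). Erbb4 was listed at 0 in all 7 libraries. Of the 8 epithelial markers, Egfr had the smallest difference and the adhesion gene Epcam the largest (-2.80).

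Among the EGF family ligands, 2 of 7 compared were lower and none reached 2-fold higher. Both lower genes encode ligands that bind EGFR alone. Tgfa was at 7.4 TPM with gefitinib against 28.3 TPM with vehicle and the amphiregulin gene Areg at 12.7 TPM with gefitinib against 37.1 TPM with vehicle. Hbegf, whose product binds EGFR and ErbB4, was at 20 TPM with gefitinib against 11.4 TPM with vehicle and stayed within 2-fold (0.76). The neuregulin genes Nrg1 and Nrg2 were at 2.2 and 1.1 TPM with gefitinib against 0.7 and 0.1 TPM with vehicle, levels near the lower limit of the file.

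The negative feedback genes of ERK split by member. Among 10 MAPK phosphatase genes, 3 were lower and 3 higher, with a median of 0.48. Dusp6 was lower at 114 TPM with gefitinib against 296 TPM with vehicle, as was Dusp4 at 56.6 TPM with gefitinib against 173 TPM with vehicle. The last lower one was Dusp9, at 3.7 TPM with gefitinib against 22.1 TPM with vehicle. Higher were Dusp1 at 76.6 TPM with gefitinib against 28.9 TPM with vehicle, Dusp10, which prefers p38 and JNK, at 10 TPM with gefitinib against 2.5 TPM with vehicle, and Dusp2, a phosphatase of activated leukocytes, at 17.5 TPM with gefitinib against 2.3 TPM with vehicle. Dusp7 and Dusp8 were above their vehicle levels without reaching 2-fold (0.95 and 0.89), so the MAPK phosphatase genes as a list had no common direction. Dusp5 and Dusp16 differed by less than 0.1 on the log2 scale, and T cell and macrophage markers stood near 3 on the same scale.

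All 6 Sprouty and Spred genes compared, which encode inhibitors acting between receptor and RAF, were lower than with vehicle, 3 of them by at least 2-fold (median -1.05; 14.4% of all genes were that much lower). Spry2 was at 28.5 TPM with gefitinib against 76.1 TPM with vehicle and Spred1 at 77.1 TPM with gefitinib against 168 TPM with vehicle. Spry1 lay just under the limit at 69.8 TPM with gefitinib against 138 TPM with vehicle (-0.98), and Spry4 at 19.8 TPM with gefitinib against 28.8 TPM with vehicle. Tumor epithelium markers had a median of -1.41 beside these genes, and the part of tumor content in their levels was not tested. Inhibitors and ubiquitin ligases that act on the receptor protein itself made up a separate list of 8. Errfi1, which encodes the EGFR kinase inhibitor MIG6, was at 122 TPM with gefitinib against 70.1 TPM with vehicle (0.79), the ubiquitin ligase gene Cbl at 64 TPM with gefitinib against 37.5 TPM with vehicle, and Lrig3 at 13.3 TPM with gefitinib against 1.8 TPM with vehicle. None of the 8 was 2-fold lower, and Lrig3 alone was 2-fold higher.

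The ETS factors of the PEA3 group, which ERK both induces and activates, were lower in order Etv4 (-2.83), Etv5 (-1.15) and Etv1 (-0.94). Etv5 was at 31.6 TPM with gefitinib against 71.1 TPM with vehicle, and Etv1 at 5.5 TPM with gefitinib against 11.5 TPM with vehicle, which is just under 2-fold. The 2 Eph receptor genes grouped with them as ERK targets were lower as well, with Epha4 at 11.3 TPM with gefitinib against 45 TPM with vehicle and Epha2 at 33.8 TPM with gefitinib against 96.8 TPM with vehicle. Ccnd1, the cyclin that links ERK to the G1 phase, was at 159 TPM with gefitinib against 280.0 TPM with vehicle (-0.81). Phlda1, Ier3 and the urokinase receptor gene Plaur were above their vehicle levels without reaching 2-fold (0.27, 0.48 and 0.93). The list of 10 had a median of -0.88, beside a tumor epithelium median of -1.41, and the part of tumor content was not tested. The ETS site CCGGAAGT was in none of the 6 genes of this list with a RefSeq promoter, counting both strands from 250 bases before to 50 after the start, and in 4.31% of all genes.

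**Figure D2:**
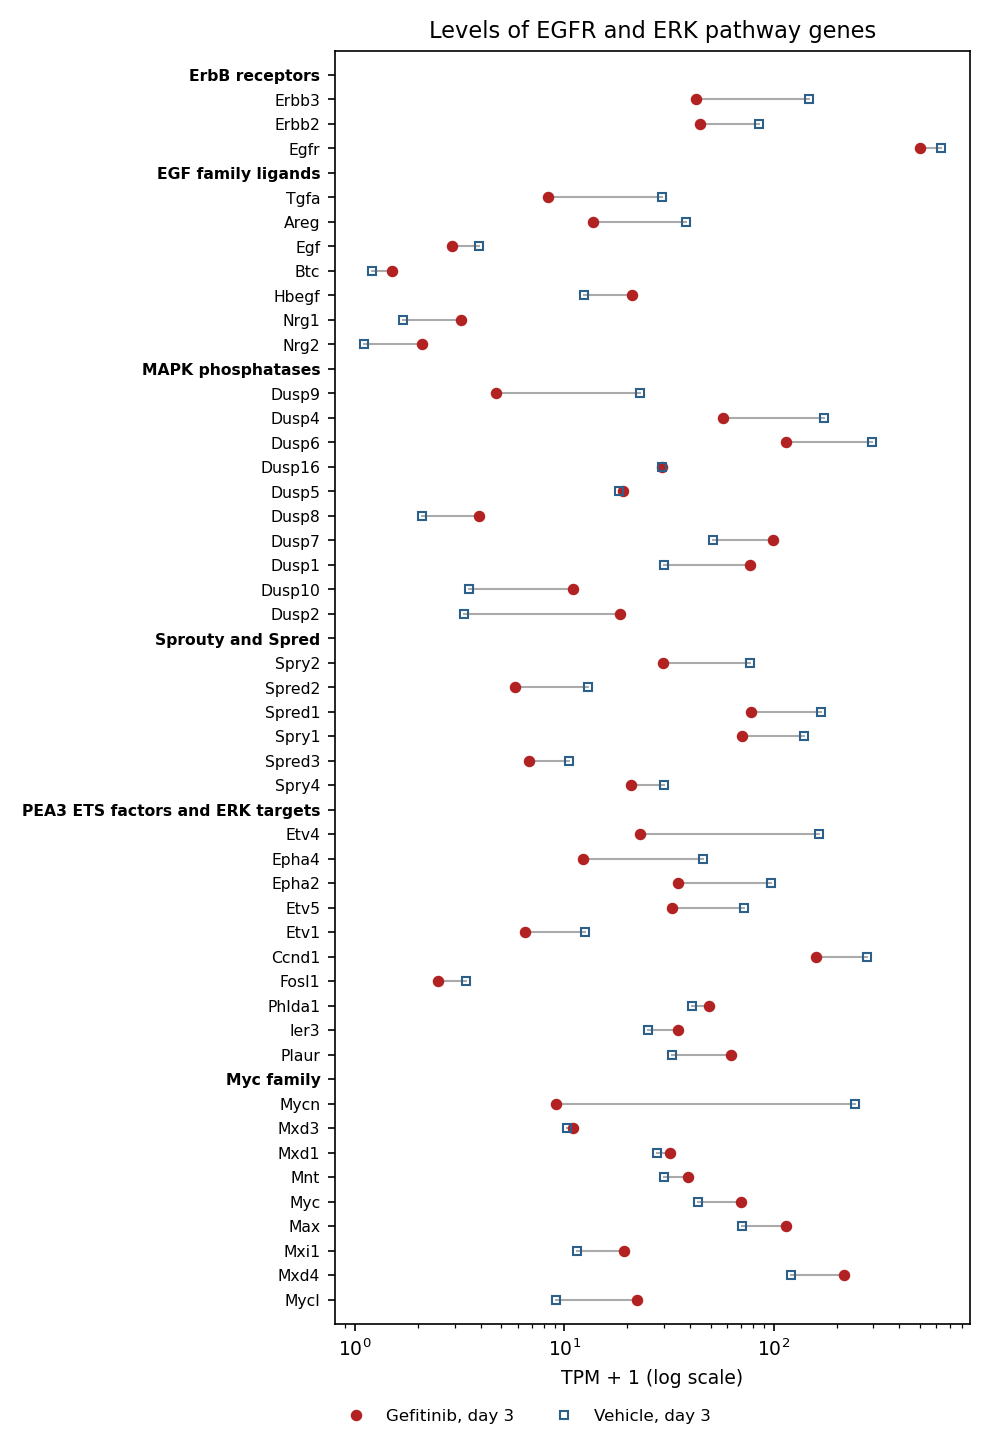
Levels of each compared gene of 6 lists as TPM + 1 on a log scale, with filled circles for gefitinib at day 3 and open squares for vehicle at day 3. Etv4, Dusp6, Spry2 and Mycn lie to the left with gefitinib, Dusp1, Dusp2 and Dusp10 to the right.

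The immediate early genes did not follow the feedback genes. Of 19 compared, 10 were at least 2-fold higher and 1 lower, with a median of 1.03, which drops below 1 with a pseudocount of 5 (0.74) or a mean of at least 5 TPM (0.83). Fos, a subunit of the AP-1 factor, was at 58.2 TPM with gefitinib against 9.7 TPM with vehicle. Atf3, a stress-induced bZIP factor, was at 54.1 TPM with gefitinib against 5.8 TPM with vehicle, and Klf4, a factor of epithelial and vascular quiescence, at 85.5 TPM with gefitinib against 15.5 TPM with vehicle. Egr1 stayed within 2-fold at 62.1 TPM with gefitinib against 51.2 TPM with vehicle, and Ier2 was the lower one at 101 TPM with gefitinib against 304 TPM with vehicle.

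Mycn had one of the largest differences of the comparison. The gene (chromosome 12, 12936093 to 12941836) encodes N-Myc, a MYC paralog used by fetal lung epithelium, and was at 8.1 TPM with gefitinib against 245 TPM with vehicle, a log2 difference of -4.76. The other MYC genes did not go the same way. Myc was at 68.6 TPM with gefitinib against 42.6 TPM with vehicle (0.67) and Mycl at 21.3 TPM with gefitinib against 8.1 TPM with vehicle (1.29). Mxd4, Mxi1 and Max, which encode partners and antagonists of the family, differed by less than 2-fold, at 0.83, 0.74 and 0.70. In bulk tissue the 3 MYC transcripts together were thus mostly Mycn with vehicle and mostly Myc with gefitinib. Tumor epithelium markers had a median of -1.41, and fibroblast and macrophage markers 2.92 and 2.89. Which cells carried each transcript was not tested.

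Receptor kinases that can bypass EGFR, with their ligands, were divided: 12 of 26 were higher and 6 lower. Those on the lower side include kinases found in epithelium. Met, the HGF receptor, was at 14.8 TPM with gefitinib against 54.1 TPM with vehicle, Igf1r at 30 TPM with gefitinib against 86.7 TPM with vehicle, Ros1 at 12.2 TPM with gefitinib against 79.2 TPM with vehicle, and Fgfr4 at 0.2 TPM with gefitinib against 10.6 TPM with vehicle. Fgfr2, the FGF receptor of alveolar epithelium, was at 58.4 TPM with gefitinib against 121 TPM with vehicle. Those on the higher side include kinases known from fibroblasts, vessels and macrophages. Pdgfra was at 55.9 TPM with gefitinib against 6.9 TPM with vehicle, Pdgfrb at 157 TPM with gefitinib against 23 TPM with vehicle, Fgfr1 at 95.3 TPM with gefitinib against 15.8 TPM with vehicle, and Axl at 353 TPM with gefitinib against 46.6 TPM with vehicle. Among ligands, Igf1 was at 54.3 TPM with gefitinib against 2.6 TPM with vehicle (3.94), whereas Hgf was lower at 8.2 TPM with gefitinib against 18 TPM with vehicle, and Gas6, the ligand of Axl, stayed within 2-fold at 822 TPM with gefitinib against 916 TPM with vehicle. Fibroblast markers, Pdgfra itself among them, had a median of 2.92 beside these kinases.

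FOXO targets, which PI3K and AKT hold down, had no common direction (median -0.21, 2 higher and 1 lower of 12). Sesn1, a sestrin that restrains mTORC1, was at 30.3 TPM with gefitinib against 8 TPM with vehicle and Bcl6, a transcriptional repressor, at 39.3 TPM with gefitinib against 10 TPM with vehicle. The lower one was Cited2, at 154 TPM with gefitinib against 319 TPM with vehicle. Irs2 was at 44.9 TPM with gefitinib against 82 TPM with vehicle, Cdkn1b, which encodes the cell cycle inhibitor p27, at 99.7 TPM with gefitinib against 100.2 TPM with vehicle, and Pik3ip1 at 13.7 TPM with gefitinib against 13.6 TPM with vehicle.

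Cell division genes were lower almost throughout. All 28 mitotic genes were at least 2-fold lower (median -2.19, range -2.85 to -1.03), as were 23 of 27 DNA replication genes (-1.64) and 13 of 16 DNA repair genes (-1.68), and none in these lists was higher. The tumor epithelium median of -1.41 lies beside these values. Kif23, a motor of the dividing cell's midzone, was at 14.3 TPM with gefitinib against 109 TPM with vehicle. Ube2c, which drives cyclin destruction with the anaphase-promoting complex, was at 56.1 TPM with gefitinib against 406 TPM with vehicle, and the proliferation marker Mki67 at 42 TPM with gefitinib against 142 TPM with vehicle. In replication, the polymerase gene Pole was at 6.3 TPM with gefitinib against 31.4 TPM with vehicle, the helicase subunit gene Mcm5 at 36.8 TPM with gefitinib against 138 TPM with vehicle, and Rrm2, which limits deoxynucleotide supply, at 34.6 TPM with gefitinib against 118 TPM with vehicle. Pcna stayed within 2-fold at 167 TPM with gefitinib against 269.7 TPM with vehicle. Replication-dependent histone genes were lower beside them, with 60 of 65 at least 2-fold lower and 1 higher (median -1.80), and their share of TPM was 2.01% with gefitinib and 6.80% with vehicle. Histone genes have near-identical copies, so the split among them is uncertain.

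Many mitotic genes carry CCAAT boxes and a cell cycle homology region (CHR) near the start. The DREAM and B-MYB complexes time them through the CHR, and many replication genes carry E2F sites. The promoters of 2 mitotic genes and 1 replication gene are shown because these lists were lower almost as a whole. They are RefSeq windows of 250 bases before the annotated start in GRCm38.p6, 5′ to 3′ on the strand of the gene, and capitals mark the motif matches.
Cdc20 (chr4:118437344-118437593, minus strand; capitals, CCAAT and TTTGAA): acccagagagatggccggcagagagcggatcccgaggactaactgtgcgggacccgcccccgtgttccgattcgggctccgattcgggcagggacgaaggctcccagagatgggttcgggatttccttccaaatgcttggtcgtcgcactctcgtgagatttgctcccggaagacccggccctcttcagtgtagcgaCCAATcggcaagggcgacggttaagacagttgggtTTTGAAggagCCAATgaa
Ccnb2 (chr9:70421555-70421804, minus strand; capitals, CCAAT and TTTGAA): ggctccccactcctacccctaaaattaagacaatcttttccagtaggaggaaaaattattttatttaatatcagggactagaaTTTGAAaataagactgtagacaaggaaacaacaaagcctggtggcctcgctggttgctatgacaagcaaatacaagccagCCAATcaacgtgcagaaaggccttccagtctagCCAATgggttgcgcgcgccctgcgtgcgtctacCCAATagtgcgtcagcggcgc
Mcm6 (chr1:128359706-128359955, minus strand; capitals, TTTCGCGC and TTTGGCGC): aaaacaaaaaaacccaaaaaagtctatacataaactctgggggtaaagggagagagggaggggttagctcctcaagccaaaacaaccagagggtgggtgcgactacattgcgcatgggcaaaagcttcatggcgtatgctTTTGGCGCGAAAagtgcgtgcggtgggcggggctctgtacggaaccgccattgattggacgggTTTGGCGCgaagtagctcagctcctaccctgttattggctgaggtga

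In windows that also take in 50 bases after the start, CCAAT was found on either strand in 18 of the 23 mitotic genes with a promoter in the table (78.3%) and in 41.1% of all 27025 genes with one. TTTGAA, the CHR, was found in 16 of 23 (69.6%) and in 20.2% of all genes. TTTCGCGC was found in 6 of 22 DNA replication genes (27.3%) and TTTGGCGC in 5 of 22 (22.7%), against 0.374% and 0.585% of all genes. In the Mcm6 window 2 E2F matches of opposite form overlap. The TTTGAA marked in Ccnb2 lies at position -167 from the start, ahead of its CCAAT boxes. Another TTTGAA of Ccnb2, at position 4, falls outside the sequence shown. These matches describe letters and not binding. Cdc20 was at 30.1 TPM with gefitinib against 172 TPM with vehicle, Ccnb2 at 28.5 TPM with gefitinib against 114 TPM with vehicle, and Mcm6, just under 2-fold, at 36.5 TPM with gefitinib against 71.1 TPM with vehicle (-0.94).

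Upstream of replication, the G1 genes diverged. Cdk4 was at 248 TPM with gefitinib against 787 TPM with vehicle, E2f8 at 12.2 TPM with gefitinib against 37.2 TPM with vehicle, Cdc25a at 11.6 TPM with gefitinib against 26.9 TPM with vehicle and the cyclin E gene Ccne1 at 10 TPM with gefitinib against 23.8 TPM with vehicle. Another D cyclin gene and the other D-type kinase gene were higher: Ccnd2 was at 60.1 TPM with gefitinib against 9.7 TPM with vehicle and Cdk6 at 21 TPM with gefitinib against 3.3 TPM with vehicle. Ccnd3 lay just under 2-fold at 145 TPM with gefitinib against 72 TPM with vehicle. Among inhibitors, Cdkn2b, which encodes p15, was at 10.8 TPM with gefitinib against 2 TPM with vehicle and the retinoblastoma gene Rb1 at 15.5 TPM with gefitinib against 7.2 TPM with vehicle, while Cdkn1a, which encodes p21, was at 122 TPM with gefitinib against 93.6 TPM with vehicle (0.38). Ccnd2 and Cdk6 are also genes of lymphocytes and macrophages, whose markers were near 3.

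Growth-related synthesis was lower with gefitinib by smaller amounts. Ribosome biogenesis genes had a median of -0.96, with 10 of 23 at least 2-fold lower and none higher; the snoRNP gene Gar1 was at 21.8 TPM with gefitinib against 81.2 TPM with vehicle and the nucleolar gene Nop56 at 36.3 TPM with gefitinib against 105 TPM with vehicle. Cytosolic ribosomal protein genes had a median of -0.53, with none of 82 lower by 2-fold and 1 higher. Nucleotide synthesis genes had a median of -0.96 (7 of 16 lower), led by Dut at 16.8 TPM with gefitinib against 67 TPM with vehicle and Ppat, the first enzyme of purine synthesis, at 15.9 TPM with gefitinib against 52.2 TPM with vehicle. Serine and one-carbon enzymes were lower in 6 of 8 cases (median -1.37), beside a tumor epithelium median of -1.41. Phgdh, which commits glucose carbon to serine, was at 28.2 TPM with gefitinib against 196 TPM with vehicle, Psat1 at 31.3 TPM with gefitinib against 152 TPM with vehicle and Shmt1 at 16.6 TPM with gefitinib against 91.1 TPM with vehicle, while Mthfd2 was at 28 TPM with gefitinib against 30.5 TPM with vehicle. ATF4 targets and amino acid transporters were mostly within 2-fold (3 of 14 lower, median -0.48), with Asns at 8.9 TPM with gefitinib against 25.3 TPM with vehicle and Trib3 at 6.6 TPM with gefitinib against 22.5 TPM with vehicle. ER chaperones were not lower: 2 of 14 were 2-fold higher, and Hspa5, which encodes BiP, was at 625 TPM with gefitinib against 424 TPM with vehicle.

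In sterol metabolism most synthetic genes were lower and several efflux genes higher. 17 of 21 enzyme genes of the route from acetyl-CoA to cholesterol passed 2-fold on the lower side, and none on the higher (median -1.56). The tumor epithelium median was -1.41 in the same comparison, and the part of tumor content was not tested. Among the lowest were Idi1 (-3.58), Sqle (-3.56) and Fdps (-3.04), whereas Pmvk, which encodes a kinase of the mevalonate route, was at 75.1 TPM with gefitinib against 67.7 TPM with vehicle. A list of sterol efflux genes, genes of the oxysterol receptor LXR and its targets, and genes of oxysterol and ester formation had 6 of 10 higher and 1 lower (median 2.13). The cholesterol exporter genes Abca1 and Abcg1 were at 188 TPM with gefitinib against 18.9 TPM with vehicle and 284 TPM with gefitinib against 19.8 TPM with vehicle, the lipid transfer gene Pltp at 1282 TPM with gefitinib against 109.9 TPM with vehicle, and Apoe at 9725 TPM with gefitinib against 1314 TPM with vehicle. The lower one was Soat1, which encodes a cholesterol-esterifying enzyme, at 122 TPM with gefitinib against 265 TPM with vehicle (-1.12). The LXR genes Nr1h3 and Nr1h2 were at 38 against 13.2 and 142 against 139 TPM, gefitinib against vehicle. Macrophages express the efflux genes strongly, and their markers had a median of 2.89.

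Genes of sterol uptake and its control lay on both sides. The sterol carrier gene Stard4 was at 5.6 TPM with gefitinib against 73.2 TPM with vehicle. Srebf2, the master factor of these genes, was at 55.9 TPM with gefitinib against 144 TPM with vehicle, and its retention factor Insig1, itself a target, at 23.3 TPM with gefitinib against 65.6 TPM with vehicle. Mylip, an LXR-induced ubiquitin ligase gene, was higher at 73.9 TPM with gefitinib against 11.8 TPM with vehicle. The sterol regulatory element TCACNCCAC was found in 1 of the 16 enzyme genes with a promoter in the table, Hmgcs1, and in 1.44% of all genes; other spellings of the element were not searched.

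Fatty acid synthesis was lower in 9 of 14 genes (median -1.36), beside a tumor epithelium median of -1.41. Fasn, the fatty acid synthase, was at 315 TPM with gefitinib against 1258 TPM with vehicle, the elongase gene Elovl6 at 2.5 TPM with gefitinib against 29.8 TPM with vehicle, and the desaturase gene Fads2 at 29.6 TPM with gefitinib against 191 TPM with vehicle. Fatty acid oxidation genes had a median of 0.09, with 3 of 14 higher, a share near the 20.8% of all genes. These 3 are PPAR targets: Pdk4 at 11.2 TPM with gefitinib against 1.3 TPM with vehicle, Angptl4 at 99.3 TPM with gefitinib against 18.6 TPM with vehicle, and Cpt1a, the gate of mitochondrial import, at 94.5 TPM with gefitinib against 32.8 TPM with vehicle. Adipocyte markers were higher in the same library (median 1.42), although Adipoq was only at 4.4 TPM with gefitinib and 0.2 TPM with vehicle.

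**Figure D3:**
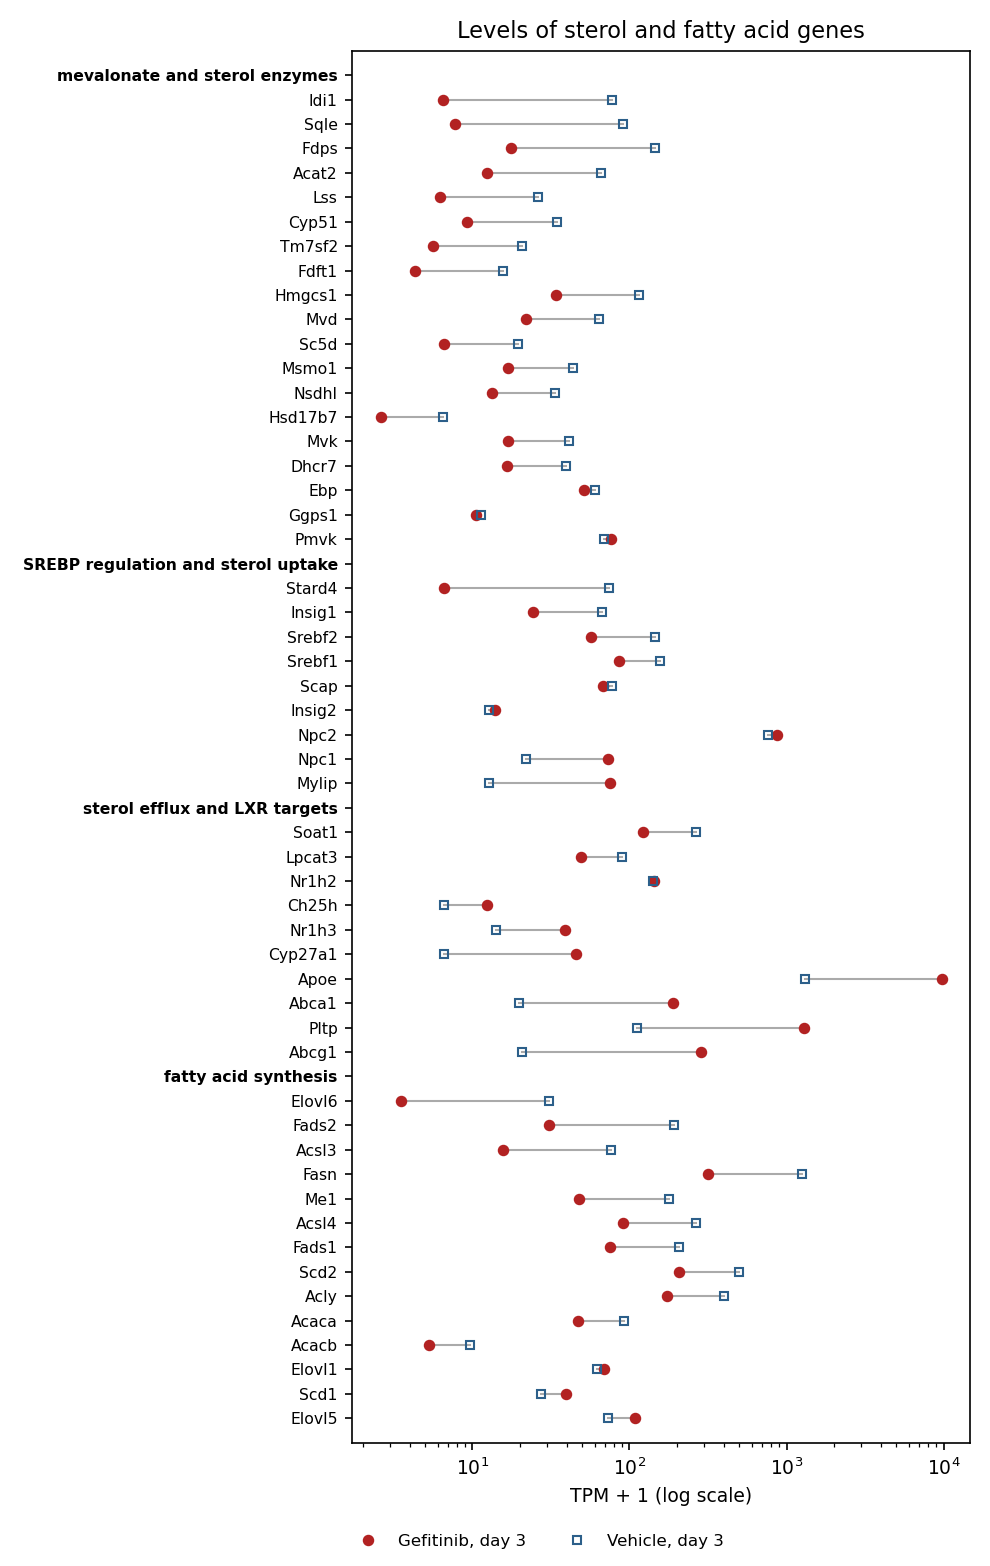
Levels of genes of 4 lipid lists, not all of those compared, as TPM + 1 on a log scale, with filled circles for gefitinib at day 3 and open squares for vehicle at day 3. Synthesis and uptake genes lie mostly to the left with gefitinib, and Abca1, Abcg1, Pltp and Apoe to the right.

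Energy metabolism differed less. Glycolysis genes had a median of -0.86, with 8 of 20 at least 2-fold lower. The lactate exporter gene Slc16a1 was at 27.9 TPM with gefitinib against 102 TPM with vehicle, Pfkl at 80 TPM with gefitinib against 267 TPM with vehicle and Ldha at 621 TPM with gefitinib against 1611 TPM with vehicle. Hk1 and Slc2a3 were higher, at 62.7 TPM with gefitinib against 18.1 TPM with vehicle and 5.7 TPM with gefitinib against 1.2 TPM with vehicle. None of the 20 respiratory chain genes and none of the 7 pentose phosphate genes reached 2-fold in either direction (medians -0.30 and -0.10, where the second turns to 0.04 under median-of-ratios scaling). Of 11 NRF2 genes, 3 were higher and 2 lower (median -0.11, or 0.04 under that scaling). The gastrointestinal glutathione peroxidase gene Gpx2 was at 24.9 TPM with gefitinib against 264 TPM with vehicle and Gsr at 41.6 TPM with gefitinib against 100.3 TPM with vehicle, against Hmox1 on the other side at 405 TPM with gefitinib against 178 TPM with vehicle. Lysosome genes were higher in 7 of 19 cases (median 0.79). Ctsb was at 1761 TPM with gefitinib against 252 TPM with vehicle and Hexa at 612 TPM with gefitinib against 146 TPM with vehicle, whereas the autophagy genes Ulk1 (-0.40) and Map1lc3b (0.05) stayed within 2-fold.

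Most epithelial identity genes were lower. 14 of 19 epithelial and lung transcription factors were lower and none higher (median -1.45). Foxa1 was at 26.1 TPM with gefitinib against 201 TPM with vehicle, and Sox9, a factor of lung bud tips, at 45.2 TPM with gefitinib against 293 TPM with vehicle. Nkx2-1, the master factor of lung epithelium, was less far apart at 204 TPM with gefitinib against 392 TPM with vehicle (-0.94), and Foxa2 (-0.49) and Klf5 (0.04) stayed within 2-fold. 12 of 16 tight junction genes were lower, led by Cldn4 (-2.88), Ocln (-2.22) and Cldn3 (-2.14). Cldn18, whose lung form seals alveolar epithelium, was the sole claudin above its vehicle level (0.80).

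Alveolar type 2 genes were lower in 12 of 16 cases (median -1.27). The surfactant protein gene Sftpa1 was at 26.6 TPM with gefitinib against 159 TPM with vehicle, the lipid transporter gene Abca3 at 134 TPM with gefitinib against 309 TPM with vehicle and Sftpc at 4058 TPM with gefitinib against 8484 TPM with vehicle. Sftpd and Ctsh stayed within 2-fold (-0.17 and -0.27). The single higher gene, the lysozyme gene Lyz2 (7081 TPM with gefitinib against 773 TPM with vehicle), is also a macrophage gene. Alveolar type 1 genes were higher in 13 of 20 cases, against 20.8% of all genes, with 1 lower (median 1.31; 0.88 with a pseudocount of 5).

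Several of the higher type 1 genes are used as markers of that cell, but their source among the cells of the tissue was not tested. T cell, NK and skeletal muscle markers had medians of 3.08, 2.93 and 2.89 in the same comparison. Hopx (chromosome 5, 77086986 to 77115123), a homeodomain cofactor, was at 126 TPM with gefitinib against 11.5 TPM with vehicle, and Ager (chromosome 17, 34597460 to 34600937), which encodes the receptor RAGE of type 1 membranes, at 1254 TPM with gefitinib against 269.9 TPM with vehicle. Igfbp2 was at 31.2 TPM with gefitinib against 1.1 TPM with vehicle, and the collagen genes of the alveolar basement membrane, Col4a3 and Col4a4, at 19.8 against 4.6 and 14.2 against 4 TPM in the same order of groups. The water channel gene Aqp5 was at 276 TPM with gefitinib against 138 TPM with vehicle, just under 2-fold. Cav1 at 104 TPM with gefitinib against 23.8 TPM with vehicle and Timp3 at 198 TPM with gefitinib against 75.4 TPM with vehicle are shared with endothelium and fibroblasts. The podoplanin gene Pdpn and Emp2 did not follow (-0.16 and -0.16).

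Genes of the state between the 2 alveolar cell types had a median of -0.09, which turns to 0.06 under median-of-ratios scaling. Its keratins and Cldn4 were lower, with Krt8 at 189.9 TPM with gefitinib against 479 TPM with vehicle and the stratifin gene Sfn at 39.7 TPM with gefitinib against 96.5 TPM with vehicle. Lgals3 and S100a6 were higher, at 650.2 TPM with gefitinib against 172 TPM with vehicle and 426 TPM with gefitinib against 166 TPM with vehicle; both are also abundant in macrophages.

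Several secretory and other lineage genes were near 0 with gefitinib. Scgb3a1, a secretoglobin of airway secretory cells, was listed at 0 with gefitinib against 100.6 TPM with vehicle. Dcpp3 and Dcpp1, salivary and airway secretory genes with near-identical copies, were at 3.2 against 326 and 0.6 against 95.2 TPM, gefitinib against vehicle. Bpifa1, an airway defense protein gene, was at 1071 TPM with gefitinib against 9876 TPM with vehicle. Among other secretory genes, Cyp2f2 was higher at 277 TPM with gefitinib against 138 TPM with vehicle and Cbr2 lay just under 2-fold at 671 TPM with gefitinib against 343 TPM with vehicle. The list median was 0.11, with 3 higher and 6 lower of 16. In the squamous list 4 of 11 were lower, among them Lce3f (0.7 TPM with gefitinib against 144 TPM with vehicle), Crct1 (7.9 TPM with gefitinib against 228 TPM with vehicle) and Trp63 (0.4 TPM with gefitinib against 14.1 TPM with vehicle), while Krt5 and Krt14 were at or below 0.1 TPM in both libraries. Skin and hair markers had a median of -1.11 (4 of 6 lower), and their part in the squamous values was not tested. The gastric gene Gkn2 was at 1.7 TPM with gefitinib against 89.7 TPM with vehicle. Among imprinted growth genes the largest difference was that of Dlk1 (chromosome 12, 109452485 to 109463336), a Notch-family ligand of fetal tissue, at 12.8 TPM with gefitinib against 822 TPM with vehicle (-5.90). Of the 10 genes in that list 6 were at least 2-fold higher, with Grb10 at 83.5 TPM with gefitinib against 9.7 TPM with vehicle, Ndn at 37 TPM with gefitinib against 3.1 TPM with vehicle and Peg3 at 11.2 TPM with gefitinib against 1.3 TPM with vehicle.

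The other genes among the 25 lowest come from varied functions. Cd177, a surface protein known from neutrophils, was at 1.8 TPM with gefitinib against 280.5 TPM with vehicle, although the neutrophil markers S100a8 and S100a9 did not reach a mean of 1 TPM. Car4, a membrane carbonic anhydrase of alveolar and capillary cells, was at 5 TPM with gefitinib against 252 TPM with vehicle. Mia was at 7.3 TPM with gefitinib against 252 TPM with vehicle, Olfm5 was listed at 0 with gefitinib against 49.6 TPM with vehicle, and Tmem27 was at 0.9 TPM with gefitinib against 77.9 TPM with vehicle. The junction genes Gjb1 and Perp were at 7.9 against 174 and 2.9 against 84.4 TPM, gefitinib against vehicle. Perp is also a p53 target, but that list did not move together (median -0.24), with Mdm2 at 22.3 TPM with gefitinib against 22.1 TPM with vehicle and Trp53 itself at 109 TPM with gefitinib against 237 TPM with vehicle.

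**Figure D4:**
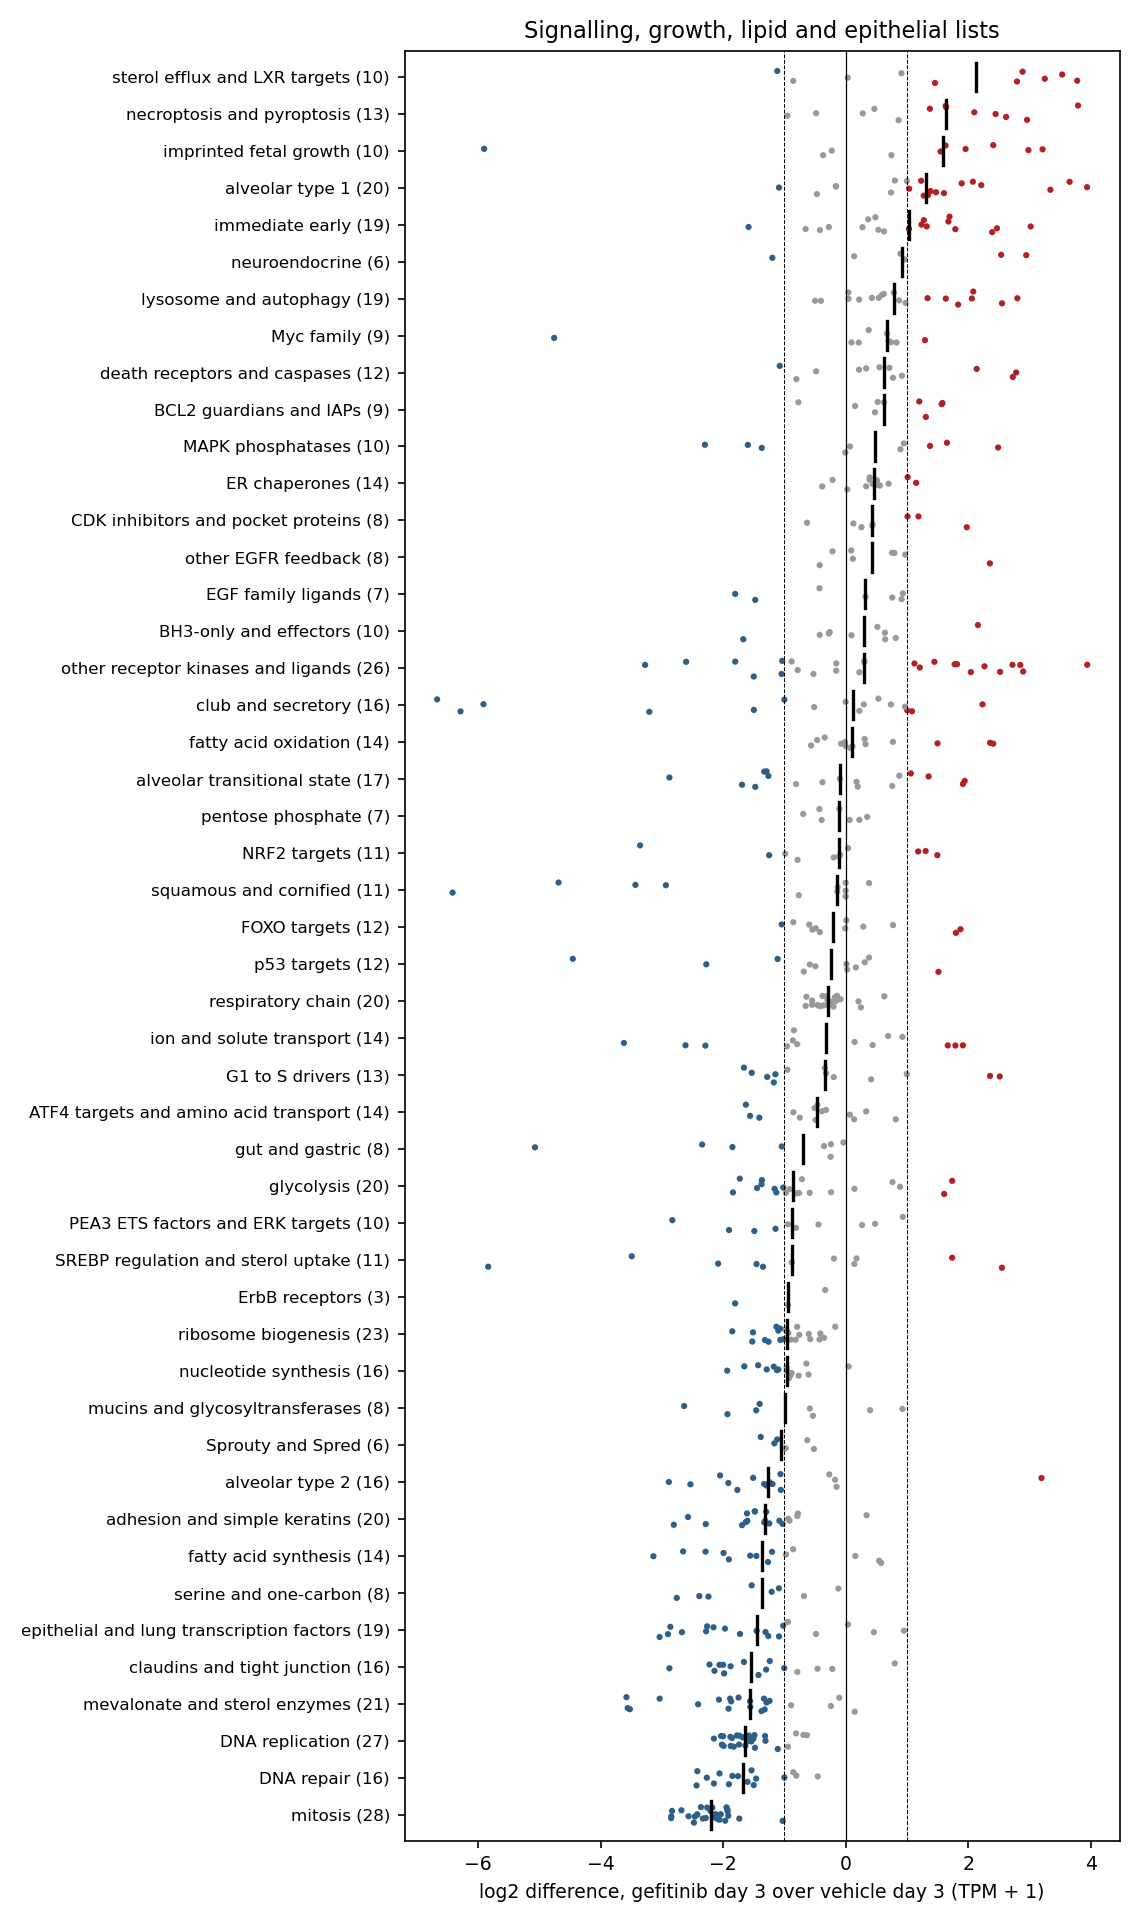
Points are genes, and rows are lists with the number of genes compared in brackets, ordered by their median (black bar); the horizontal axis is the log2 difference of gefitinib day 3 over vehicle day 3, with dashed lines at 2-fold. The cell division and sterol synthesis lists lie at the bottom and the sterol efflux and LXR list and the alveolar type 1 list near the top.

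Among cell death genes, 1 of 10 BH3-only and effector genes was higher and 1 lower (median 0.31), and 4 of 9 BCL2 guardian and IAP genes were higher and none lower (0.62). Bcl2l11, which encodes BIM, the BH3-only protein known to carry killing by EGFR inhibitors, was at 27.7 TPM with gefitinib against 15.3 TPM with vehicle, under 2-fold (0.82). Bmf and Bbc3 were at -0.27 and -0.26, and Pmaip1, which encodes NOXA, was the higher one at 10.6 TPM with gefitinib against 1.6 TPM with vehicle. Bok, an effector of the BAX type, was the lower one at 15.2 TPM with gefitinib against 50.6 TPM with vehicle (-1.67). On the guardian side Mcl1 was at 310.5 TPM with gefitinib against 134 TPM with vehicle and Bcl2l1, which encodes BCL-XL, at 46.5 TPM with gefitinib against 80.1 TPM with vehicle (-0.77). Birc3, an IAP gene and NF-kB target, was at 65.3 TPM with gefitinib against 21.2 TPM with vehicle. The leukocyte guardian genes Bcl2a1b and Bcl2a1d, which have near-identical copies, were at 144 against 57.4 and 59.4 against 19.4 TPM, gefitinib against vehicle. 8 of 13 necroptosis and pyroptosis genes were higher and none lower (median 1.63). Zbp1, a sensor of Z-form nucleic acid and itself interferon-induced, was at 153 TPM with gefitinib against 10.1 TPM with vehicle. Casp4 was at 21.7 TPM with gefitinib against 2.7 TPM with vehicle, Casp1 at 37.7 TPM with gefitinib against 6.1 TPM with vehicle, and Gsdmd, which encodes the pore of pyroptosis, at 95.8 TPM with gefitinib against 21.6 TPM with vehicle. Ripk3 and Mlkl stayed within 2-fold (0.28 and 0.47). Macrophage and monocyte markers had a median of 2.89 beside this list, and which cells express its members was not tested.

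Interferon-stimulated genes were higher across their classes, and both antiviral genes and interferon gamma GTPases took part. The 2 promoters of antiviral genes and 1 of a GTPase gene shown next carry the elements bound by interferon factors: the interferon-stimulated response element (ISRE, TTTC and TTTC with any 2 bases between them), bound by ISGF3 and IRF proteins, and the gamma-activated site (GAS, TTCNNNGAA) of the interferon gamma response. The windows and source are as for the cell cycle promoters.
Isg15 (chr4:156200819-156201068, minus strand; capitals, ISRE, 3 overlapping matches on the opposite strand): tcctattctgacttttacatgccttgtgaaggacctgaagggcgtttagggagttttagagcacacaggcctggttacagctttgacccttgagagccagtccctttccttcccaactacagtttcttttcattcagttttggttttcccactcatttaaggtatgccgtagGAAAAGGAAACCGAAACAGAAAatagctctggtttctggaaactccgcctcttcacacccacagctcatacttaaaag
Ifit3 (chr19:34583279-34583528, plus strand; capitals, ISRE): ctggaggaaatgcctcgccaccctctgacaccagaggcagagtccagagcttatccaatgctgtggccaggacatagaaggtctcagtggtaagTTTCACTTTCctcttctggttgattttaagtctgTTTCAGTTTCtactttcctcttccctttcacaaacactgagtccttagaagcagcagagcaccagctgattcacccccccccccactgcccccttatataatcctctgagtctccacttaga
Igtp (chr11:58199306-58199555, plus strand; capitals, GAS): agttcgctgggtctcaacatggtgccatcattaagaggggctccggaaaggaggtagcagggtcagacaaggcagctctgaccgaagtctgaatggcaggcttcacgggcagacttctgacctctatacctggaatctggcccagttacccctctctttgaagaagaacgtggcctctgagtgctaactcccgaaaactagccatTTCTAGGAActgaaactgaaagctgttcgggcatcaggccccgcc

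The ISRE was found on either strand in 9 of 18 antiviral genes with a promoter in the table (50%) and in 3.99% of all genes. The GAS was found in 6 of 9 GTPase genes (66.7%) and in 9.55% of all genes. The ISRE was not counted in the GTPase list, nor the GAS in the antiviral list. Capitals mark only the element named for each gene. The Igtp sequence also holds gaaactgaaa, an ISRE match on the opposite strand, left in lower case. Isg15 was at 142 TPM with gefitinib against 11 TPM with vehicle, Ifit3 at 91.3 TPM with gefitinib against 6.1 TPM with vehicle and Igtp at 269 TPM with gefitinib against 25.3 TPM with vehicle. In all, 20 of 22 antiviral genes were at least 2-fold higher (median 2.64), and the remaining pair, Eif2ak2 and Ifi35, lay just under that. All 14 GBP and IRG genes, GTPases that attack vacuoles of pathogens, were higher (median 3.32, lowest 2.54). Gbp2 was at 438 TPM with gefitinib against 27.5 TPM with vehicle and Iigp1 at 222 TPM with gefitinib against 23.1 TPM with vehicle. Tgtp1 and Tgtp2 are near-identical, so the division between them is uncertain. T cell, NK and macrophage markers had medians of 3.08, 2.93 and 2.89 beside these genes.

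The steps before these targets differed in size. Of 12 interferon genes listed, Ifng alone had a mean of 1 TPM or more, at 4.3 TPM with gefitinib and listed at 0 with vehicle. The nucleic acid sensors were higher in 10 of 13 cases. The endosomal receptors Tlr9 and Tlr7 were at 134 against 10.2 and 26.1 against 1.3 TPM, gefitinib against vehicle. The cytosolic sensor Ddx58 (RIG-I) was at 51.6 TPM with gefitinib against 8.7 TPM with vehicle, while Tlr3 (0.23) and the adaptor Mavs (0.15) stayed within 2-fold. Stat2, a subunit of ISGF3, was at 123 TPM with gefitinib against 19.1 TPM with vehicle (2.62). The receptor genes Ifnar1 (0.65), Ifnar2 (0.93), Ifngr2 (1.03) and Ifngr1 (1.90) differed less. Ifnlr1, the receptor chain for lambda interferon found on epithelium, was lower at 2.8 TPM with gefitinib against 11 TPM with vehicle. Within the IRF family, Irf7 (4.16), Irf8 (3.25), Irf1 (2.36) and Irf5 (2.33) were higher, and Irf3 stayed within 2-fold (0.09). Irf8 and Irf5 are also myeloid genes, and the macrophage median was 2.89.

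Antigen processing separated by kind of proteasome. The inducible subunits Psmb8, Psmb9 and Psmb10 were at 371 against 85.9, 235 against 37.2 and 212 against 50 TPM, gefitinib against vehicle. Their constitutive counterparts Psmb5, Psmb6 and Psmb7 were at 164 against 205, 193 against 249.8 and 186 against 262 TPM in the same order. None of the 14 constitutive subunits reached 2-fold (median -0.42), whereas 8 of 10 immunoproteasome and peptide loading genes did (1.89). The nonclassical class I genes H2-T23, which presents leader peptides to NKG2A, and H2-M3 were at 692 against 163 and 54.2 against 13.1 TPM, gefitinib against vehicle. Of 4 genes listed for ligands of the activating NK receptor NKG2D, 3 were lower, and H60b stayed within 2-fold (-0.42). Raet1e was at 7.6 TPM with gefitinib against 56.5 TPM with vehicle, Raet1d at 2.5 TPM with gefitinib against 33.4 TPM with vehicle and Ulbp1 at 6 TPM with gefitinib against 22.5 TPM with vehicle. The receptor gene Klrk1 was at 17.6 TPM with gefitinib against 1.8 TPM with vehicle. Raet1 and H2-Q genes have near-identical copies, and values of single members are uncertain.

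Most chemokine genes compared were higher. 13 of 19 CC chemokine genes were higher, among them the monocyte attractants Ccl2 (122 against 18.6 TPM, gefitinib against vehicle), Ccl7 (94.3 against 13) and Ccl12 (78.8 against 9.9), and Ccl8 at 1742 TPM with gefitinib against 401 TPM with vehicle. Xcr1, the receptor gene by which cross-presenting dendritic cells follow Xcl1, was at 5.6 TPM with gefitinib against 0.4 TPM with vehicle. The 2 lower genes of the list were Ccl17, a ligand of CCR4, at 2.5 TPM with gefitinib against 31 TPM with vehicle and Ccl24, a ligand of CCR3, at 1.4 TPM with gefitinib against 6.6 TPM with vehicle. Other ligands of these receptors were not lower by 2-fold: Ccl22, which binds CCR4, was at 31.7 TPM with gefitinib against 47.8 TPM with vehicle (-0.58), and the eotaxin gene Ccl11, whose product binds CCR3, was higher at 27.4 TPM with gefitinib against 9.7 TPM with vehicle (1.41). In the CXC family Cxcl16 was at 308 TPM with gefitinib against 56.4 TPM with vehicle and the stromal gene Cxcl12 at 59.8 TPM with gefitinib against 10.6 TPM with vehicle. The neutrophil attractants Cxcl1, Cxcl2 and Cxcl3 stayed below 1 TPM in both libraries. Of 16 cytokine genes 7 were higher and 2 lower. Csf1, the macrophage growth factor, was at 89 TPM with gefitinib against 14.6 TPM with vehicle and Il12b at 14.7 TPM with gefitinib against 1.4 TPM with vehicle, whereas Csf2, which encodes GM-CSF and is made by type 2 cells among others, was at 3.1 TPM with gefitinib against 13 TPM with vehicle and Il7 at 1 TPM with gefitinib against 5.7 TPM with vehicle.

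Nearly all complement genes were higher, and many phagocyte genes. 15 of 16 complement genes were higher (median 2.94), with Cd55, an inhibitor of the cascade, within 2-fold at 7.2 TPM with gefitinib against 5.1 TPM with vehicle. The classical pathway chains C1qa, C1qb and C1qc were at 3508 against 424, 3124 against 305 and 3235 against 349.8 TPM, gefitinib against vehicle, and the proteases C2 and C1s1 at 46.1 against 3.1 and 214 against 21.1 TPM. Of 15 genes of apoptotic cell uptake and lipid-laden macrophages, 9 were higher and 1 lower (median 1.53). The higher ones were led by Gpnmb at 90.2 TPM with gefitinib against 5.2 TPM with vehicle, Lpl at 364 TPM with gefitinib against 24.2 TPM with vehicle and Trem2 at 155 TPM with gefitinib against 14.5 TPM with vehicle. The lower one was the fatty acid carrier gene Fabp5, also an alveolar type 2 gene, at 509 TPM with gefitinib against 2109 TPM with vehicle (-2.05). Spp1 was at 44.4 TPM with gefitinib against 34 TPM with vehicle, while C1qbp, the scavenger receptor gene Cd36 and the bridging factor gene Mfge8 lay below vehicle without reaching 2-fold (-0.86, -0.70 and -0.40). Cd24a, an epithelial signal that restrains phagocytosis, was at 108 TPM with gefitinib against 676 TPM with vehicle, while Sirpa, the receptor of the CD47 signal on myeloid cells, was at 481 TPM with gefitinib against 51.6 TPM with vehicle and Cd47 at 166 TPM with gefitinib against 103 TPM with vehicle.

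Developmental signalling lists mixed epithelial and stromal members. Wnt genes were higher in 12 of 20 cases. The feedback gene Axin2 was at 6.8 TPM with gefitinib against 0.5 TPM with vehicle, Tcf7, a T cell factor too, at 28.9 TPM with gefitinib against 2.8 TPM with vehicle, and the secreted inhibitors Sfrp2 and Dkk3 at 484 against 46.9 and 59.6 against 3.4 TPM, gefitinib against vehicle. The receptor ligase gene Rnf43 was lower at 5.6 TPM with gefitinib against 30.2 TPM with vehicle. In the TGF-beta and BMP list, Tgfb3 was at 246 TPM with gefitinib against 28.2 TPM with vehicle, Tgfb1 at 429.6 TPM with gefitinib against 137 TPM with vehicle and the receptor gene Tgfbr2 at 298 TPM with gefitinib against 81.9 TPM with vehicle. The BMP-induced Id genes did not move together: Id1 and Id2 were at 88.1 against 445 and 160.4 against 867 TPM, gefitinib against vehicle, but Id3 was at 307 TPM with gefitinib against 64.7 TPM with vehicle. Bmp4 was at 22.5 TPM with gefitinib against 69.5 TPM with vehicle. Notch genes were lower for Jag2 (-2.21), Hes1 (-1.45), Dll1 (-1.23), Notch1 (-1.21) and Jag1 (-1.05), and higher for Lfng (2.68), Mfng (1.98), Hey1 (1.43) and Notch4 (1.23), an endothelial receptor.

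Of 17 YAP and TEAD genes, factors and targets together, 7 were higher and 3 lower (median 0.24). The TEAD factor genes Tead2 and Tead4 were lower, at 24.3 against 143 and 10 against 30.2 TPM, gefitinib against vehicle, as was the target Ajuba at 16.3 TPM with gefitinib against 35.9 TPM with vehicle (-1.09). Yap1, Wwtr1, Tead1 and Tead3 stayed within 2-fold (-0.81, 0.27, -0.57 and -0.50), as did the targets Amotl1, Amotl2 and Ptpn14 (-0.70, 0.24 and -0.20). The targets Ctgf and Cyr61, which encode matricellular proteins, were higher at 74.2 against 15.6 and 96.1 against 23.9 TPM. Endothelial and fibroblast markers were higher beside them (1.90 and 2.92). Of 15 Eph and ephrin genes outside the ERK target list, 7 were lower and 4 higher, from Epha7 at 1.9 TPM with gefitinib against 25.3 TPM with vehicle to Epha3 at 38.5 TPM with gefitinib against 2.1 TPM with vehicle.

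Matrix genes were higher by different shares of each class. 18 of 19 proteoglycan and elastic fiber genes were higher (median 2.79), with Eln at 328 TPM with gefitinib against 27.4 TPM with vehicle and the keratan sulfate proteoglycan gene Ogn at 63 TPM with gefitinib against 1.6 TPM with vehicle. The exception, the versican gene Vcan, was at 25.6 TPM with gefitinib against 124 TPM with vehicle. Fibroblast markers, some of them in these lists, had a median of 2.92. 15 of 20 collagen and crosslinking genes were higher, 1 lower and 4 within 2-fold. Col11a1 was at 23.9 TPM with gefitinib against 0.3 TPM with vehicle and the crosslinking oxidase gene Loxl1 at 283 TPM with gefitinib against 41.4 TPM with vehicle. Here Col14a1 was lower at 215 TPM with gefitinib against 485 TPM with vehicle, and the prolyl hydroxylase gene P4ha1 was at 81.2 TPM with gefitinib against 77.5 TPM with vehicle. In the basement membrane list 6 of 14 were higher and 3 lower. Lama5, the laminin chain of epithelium, was at 49.1 TPM with gefitinib against 280.5 TPM with vehicle and Col4a5 at 11 TPM with gefitinib against 43.9 TPM with vehicle. Lama2 and Lama4, chains of muscle and vessels, were at 14.1 against 1.2 and 91.1 against 20.2 TPM, gefitinib against vehicle, and the skeletal muscle median was 2.89. Col4a1 was at 561 TPM with gefitinib against 606 TPM with vehicle.

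Of 22 matrix protease and inhibitor genes 15 were higher and 2 lower. Mmp2 was at 549 TPM with gefitinib against 50.6 TPM with vehicle, Mmp9 at 45.5 TPM with gefitinib against 4.3 TPM with vehicle, and Mmp14, which activates Mmp2, at 778 TPM with gefitinib against 105 TPM with vehicle. The lower ones were the epithelial Mmp15 at 13.7 TPM with gefitinib against 79.1 TPM with vehicle and Adamts1 at 26.4 TPM with gefitinib against 72.3 TPM with vehicle. Fibroblast activation genes were higher in 18 of 19 cases, the exception being Pdpn (-0.16), with Postn at 955 TPM with gefitinib against 111 TPM with vehicle and Lrrc15, a marker of TGF-beta-driven fibroblasts, at 63.6 TPM with gefitinib against 5.6 TPM with vehicle. Transcription factors of mesenchymal transition were higher as well; Twist1 was at 42.7 TPM with gefitinib against 4.7 TPM with vehicle, Zeb2, also a macrophage gene, at 73.1 TPM with gefitinib against 9.7 TPM with vehicle, and Snai1 at 85.2 TPM with gefitinib against 21.4 TPM with vehicle. Fibroblast markers had a median of 2.92 in the same comparison, and which cells express the transition factors was not tested. Of 18 angiogenic genes 12 were higher and 1 lower. The lower one was the apelin gene Apln, a hypoxia and tip cell gene, at 47 TPM with gefitinib against 227 TPM with vehicle, although its receptor gene Aplnr was at 49.2 TPM with gefitinib against 8.1 TPM with vehicle. Vegfb stayed within 2-fold (-0.48), and Vegfc was at 4.2 TPM with gefitinib against 0.6 TPM with vehicle.

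Among the 25 highest genes, Itgbl1, an integrin-like secreted protein of matrix-producing cells, had the largest difference, at 76.4 TPM with gefitinib against 0.6 TPM with vehicle. Lrrc26 followed at 36.4 TPM with gefitinib against 0.2 TPM with vehicle. Ngfr, a neurotrophin receptor of nerve-associated and stromal cells, was at 40.4 TPM with gefitinib against 1.2 TPM with vehicle, and the osteoclast and fibroblast protease gene Ctsk at 171 TPM with gefitinib against 9.3 TPM with vehicle. The interferon-linked genes Serpina3g, Gbp2b and Fam26f were at 227 against 11.3, 31.7 against 0.5 and 106 against 5.1 TPM, gefitinib against vehicle. Psme2b, a copy of the proteasome activator gene Psme2, was at 57 TPM with gefitinib against 2.2 TPM with vehicle, and reads may be shared between them. Cox8b, a cytochrome oxidase subunit gene of muscle and brown fat, was at 27.6 TPM with gefitinib against 0.6 TPM with vehicle beside the higher muscle markers. The macrophage genes Mpeg1 and Clec4a1 and the B cell and myeloid gene Cd72 were at 693 against 42.1, 199.6 against 12 and 193 against 11.3 TPM.

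**Figure D5:**
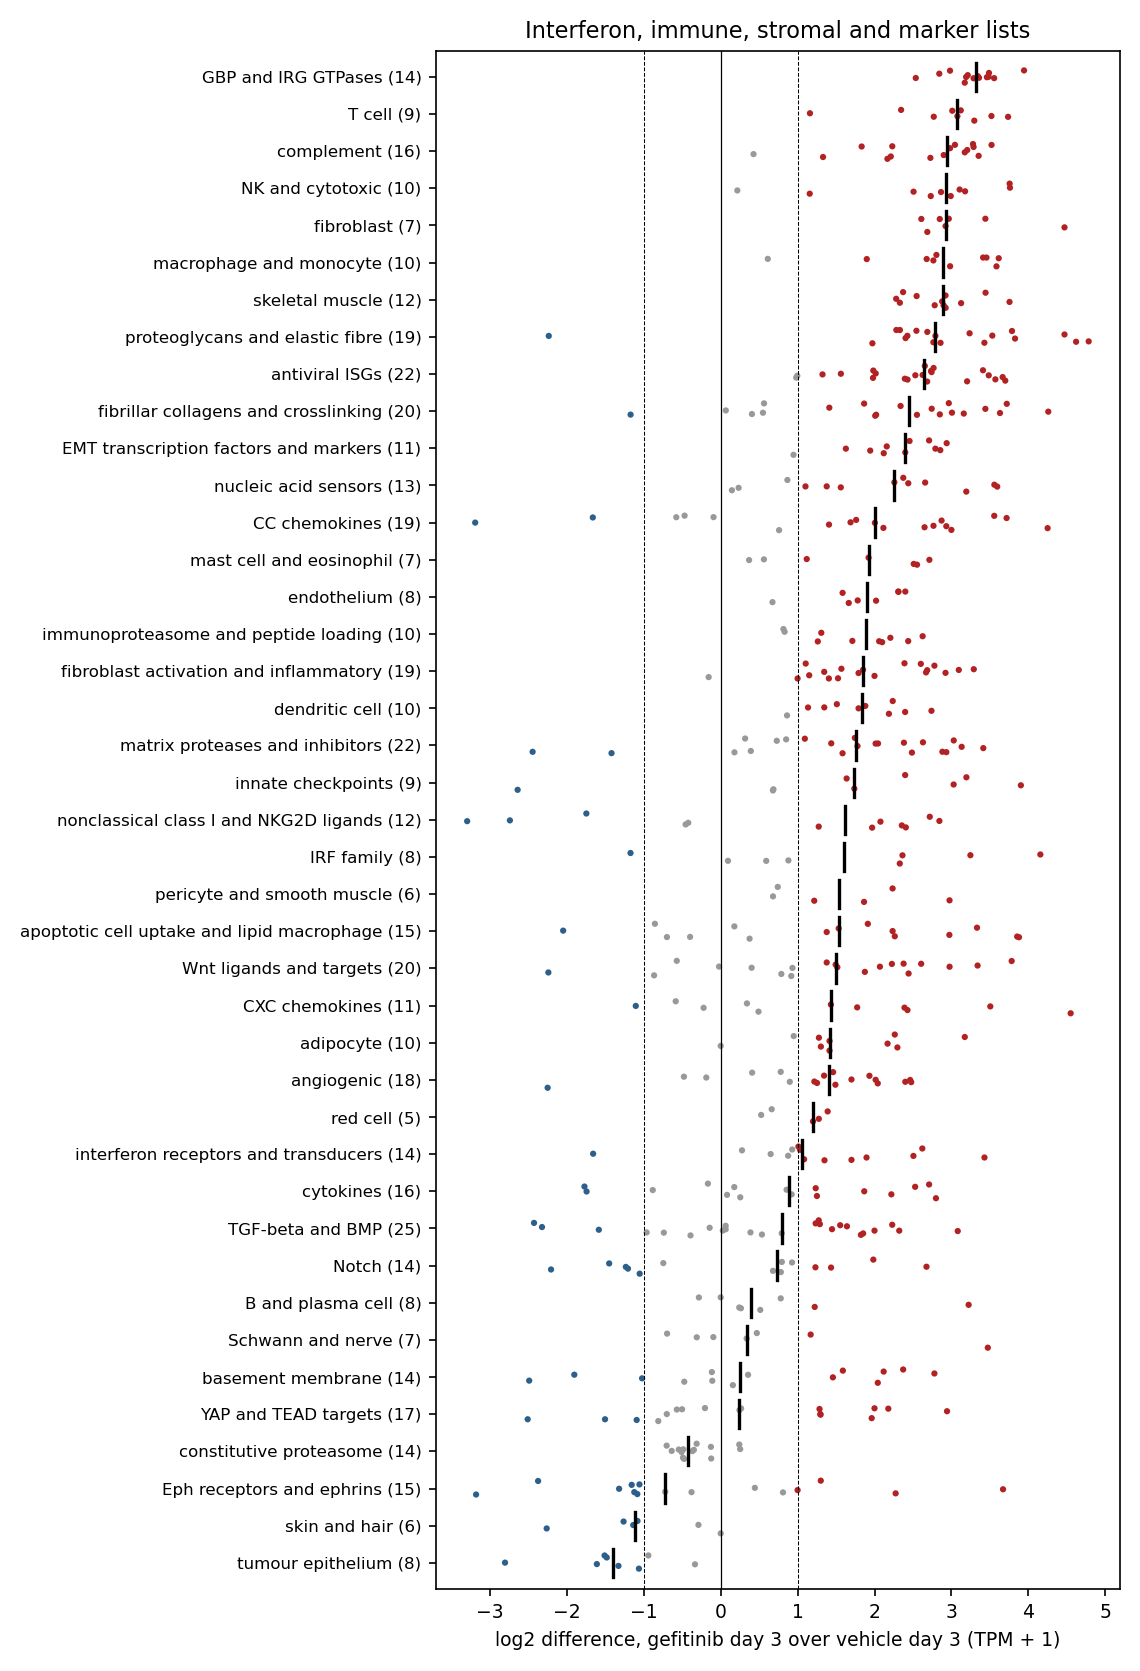
Points are genes and rows are lists ordered by median (black bar), with the number of genes compared in brackets; the horizontal axis is the log2 difference of gefitinib day 3 over vehicle day 3, with dashed lines at 2-fold. GTPase, T cell and complement genes lie at the top, the constitutive proteasome within 2-fold, and tumor epithelium at the bottom.

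Levels of 4 genes far apart at day 3, chosen after their values were seen, are given for all 7 libraries with no fold difference computed. In the order vehicle day 3, gefitinib day 3, gefitinib day 14, and then at day 21, after 14 days of gefitinib and 7 days of follow-up, vehicle, DC101, 4H2 and both agents, Mycn was at 245, 8.1, 15, 136, 133, 0.5, 13.3 TPM. It was high in the vehicle day 3, vehicle day 21 and DC101 libraries and far lower in the other 4. The tumor marker Egfr was at 629.8, 499, 439, 447, 538, 19.4, 48.3 TPM in the same order. How far tumor content enters these levels was not tested. Dlk1 was at 822, 12.8, 15, 172, 374, 1.7, 12.5 TPM in that order. Scgb3a1 was at 101, 0, 2.8, 2.5, 4.4, 0, 2.6 TPM, so that of the 7 libraries the day 3 vehicle library alone exceeded 5 TPM. Hopx was at 11.5, 126, 67.4, 42.5, 28.7, 10.6, 21.6 TPM, highest at day 3 of gefitinib.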

How the data were processed

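Per the labels' protocols, libraries keeping strand were made from frozen tumor RNA after removal of ribosomal RNA. The authors deposited TPM for 21892 gene symbols, rounded to 1 decimal, in the GRCm38.p6 build per the submitters' processing notes; aligner, counter and annotation: not given in the sources used here. All 13 mitochondrial protein genes are listed at 0, so a 0 is reported only as listed. Differences were computed in pandas 2.3.3 as log2((TPM + 1) / (TPM + 1)) for genes with a mean of at least 1 TPM, with values of exactly 2-fold counted. The calculation was tested on simulated data. The 92 lists held 1287 genes, of which 1277 are in the file and 1174 were compared; members and lists were chosen with earlier results of these data known. One library per group allows no test, SD or interval. Genes named are list members, largest first, or any member of lists of up to 10, and the 25 highest and 25 lowest protein-coding genes with at least 10 TPM in either library. Further members of longer lists were named after their values were seen, as were the metal handling genes. Positions and promoters come from RefSeq tables of the same build, which matched 21356 symbols. Alternatives tried: adding 0.1 or 5 TPM, dropping the filter, raising it to 5 TPM, and median-of-ratios scaling over 7340 genes. Some list members are not reported here by name. Further samples entered no comparison. Nothing says how many animals a library stands for.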

Additional observations from a re-analysis of the deposited data

How the results depend on the processing

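The count of genes at least 2-fold higher, 2914, ran from 1924 with a pseudocount of 5 to 3322 with 0.1, and that of lower genes, 2018, from 1343 to 2317 under the same settings. A pseudocount of 5 moved both by over 1.5 times, since it shrinks the difference of low genes. Median-of-ratios scaling multiplied gefitinib values by 1.11 and gave 3156 higher and 1629 lower genes, with a median over all genes of 0.03. Of 92 list medians, 37 were at least 2-fold higher and 13 lower; these numbers ranged over the alternatives from 28 to 41 and from 11 to 16. Under median-of-ratios scaling 89 of 92 list medians kept their side of the 2-fold limit. The neutrophil median, 1.82 over 2 genes, turned to -0.24 without a filter, which brings in 6 more low genes. No list gene or top gene past 2-fold changed direction under any of the 5 alternatives; 112 of 1206 crossed the limit with a pseudocount of 5 and 70 with scaling. No paired analysis was possible because each group holds 1 library. Leaving out a replicate was not possible for the same reason. Depth is unknown, so differences among genes of a few TPM are not backed by a known number of reads.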

Other observations

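Metal handling genes, chosen after their values were seen, also stood apart. Tfrc (chromosome 16, 32608896 to 32632794), which encodes the transferrin receptor for iron uptake, was at 29 TPM with gefitinib against 436 TPM with vehicle (-3.87), and Trf, which encodes transferrin, at 462 TPM with gefitinib against 2196 TPM with vehicle. The metal importer genes Slc39a8 and Slc39a4 were at 20.3 against 272 and 61.8 against 384 TPM, gefitinib against vehicle. Lcn2, whose product binds iron-loaded siderophores and which epithelium and neutrophils secrete, was at 41.6 TPM with gefitinib against 534 TPM with vehicle. The ferritin genes Ftl1 and Fth1 were higher, at 7394 against 3449 and 2269 against 911 TPM in the same order, as were the metallothionein genes Mt1 and Mt2 at 748 against 360.3 and 1003 against 368 TPM. Slc11a1, the phagosomal metal transporter of macrophages, was at 159 TPM with gefitinib against 10.5 TPM with vehicle, beside a macrophage marker median of 2.89. The iron exporter gene Slc40a1 was lower at 17 TPM with gefitinib against 40.8 TPM with vehicle, and the ceruloplasmin gene Cp stayed within 2-fold (-0.74).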
